A study of Mus musculus with 8 samples.

Results

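The CC chemokine genes on mouse chromosome 11 were examined for their contacts with other active chromatin, 7 genes in 2 clusters. Ccl2 and Ccl7 lie in the first cluster, and Ccl5, Ccl9, Ccl6, Ccl3 and Ccl4 follow each other in the second. Contacts were measured by H3K27ac HiChIP, in which crosslinked chromatin is pulled down with an antibody against H3K27ac, an acetylation found at promoters and enhancers in use, and pieces of DNA held together in it are then joined. The cells were HPC-7, a mouse haematopoietic progenitor line grown with stem cell factor, expressing the full-length p42 or the shorter p30 isoform of the transcription factor CEBPA. Groups were p30 UT and p42 UT (untreated), and p30 LPS and p42 LPS, which received lipopolysaccharide, the bacterial ligand of TLR4, at 100 ng/mL for 2 h. A loop was counted for a gene when 1 of its 2 bins of 5 kb held the start site of the canonical transcript, which gave 109 of the 214313 loops found in any of the lists. Values for the groups are given in the order p30 UT, p30 LPS, p42 UT, p42 LPS unless a sentence says otherwise.

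Each group carried an added CEBPA isoform, and no line without one was analysed here. The isoforms came from retroviral vectors that also express GFP, either fused to an ERT2 fragment that enters the nucleus with a tamoxifen derivative or as constitutive constructs. The labels give neither which construct these libraries came from nor whether that inducer was added. Each group had 2 replicates, 8 libraries in all, and 1 pooled list per group was deposited. No spread between replicates could therefore be measured, and each test below compares the pooled libraries, not the conditions.

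CC chemokines are small secreted proteins that attract leukocytes through G protein-coupled receptors. Ccl2 and Ccl7 act on monocytes through CCR2, Ccl3, Ccl4 and Ccl5 attract monocytes and T cells, and Ccl6 and Ccl9 are rodent chemokines that act through CCR1. Many of these genes are transcribed in myeloid cells upon TLR4 signalling, which activates NF-kB and AP-1. The genes of a cluster arose by duplication and can share enhancers, and contacts of a promoter with regions that carry H3K27ac are commonly used to find such candidates.

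The lists held 78591 to 158233 loops, the longest in p42 UT, and rested on 14503330 to 18999991 contacts modelled by the caller. Mean coverage was 1939 to 2911 reads for bins with an H3K27ac peak and 393 to 609 reads for other bins. Of the marker genes searched for a start-site loop, the progenitor genes had one in 8 of 8 in each list, Gata2, Kit and Runx1 included. Granulocyte and monocyte genes had one in 4 to 6 of 6, macrophage genes in 1 of 4 (Adgre1), and the mast cell, B cell, T cell and hepatocyte genes, 2 or 3 each, in 0 or 1. Because p42 UT listed so many loops, counts are also given for lists of equal size, which keep the 78591 loops of smallest q-value in each, the length of the shortest list.

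All 7 genes were located in GRCm39, the assembly behind mm39, with GENCODE M39. In the first cluster, Ccl2 (ENSMUSG00000035385.6) spans chr11:81926397-81928279 on the plus strand and Ccl7 (ENSMUSG00000035373.4) chr11:81936532-81938351 on the plus strand. In the second, Ccl5 (ENSMUSG00000035042.4) spans chr11:83416602-83425942, Ccl9 (ENSMUSG00000019122.10) chr11:83463745-83473161, Ccl6 (ENSMUSG00000018927.5) chr11:83478708-83483913 and Ccl3 (ENSMUSG00000000982.7) chr11:83538670-83540191, these 4 on the minus strand. Ccl4 (ENSMUSG00000018930.5) lies at chr11:83553383-83555509 on the plus strand. Ccl3 and Ccl4 therefore point away from each other, with their start sites in bins 10 kb apart.

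The promoters of the genes that anchored most loops, and of Ccl5 beside them, are given from 250 bases before to 30 bases after the start site, read 5′ to 3′ on the gene's strand from GRCm39, with matches to 5 motifs in capitals. The motifs were TGANTCA (AP-1), GGG and TTTCC with any 2 bases between them (NF-kB), TTGCNNAA (CEBP), TGATGNAA (CEBP-ATF) and 2 copies of GAAA with any 2 bases between them (interferon response element), searched on both strands, and no matches overlapped in the member promoters.
Ccl9 promoter, chr11:83469438-83469717, minus strand: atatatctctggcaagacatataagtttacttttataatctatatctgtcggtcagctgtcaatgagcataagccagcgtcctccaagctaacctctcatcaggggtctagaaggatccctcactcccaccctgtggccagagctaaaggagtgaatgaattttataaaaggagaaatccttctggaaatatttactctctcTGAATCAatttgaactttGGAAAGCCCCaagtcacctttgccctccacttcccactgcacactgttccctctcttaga
Ccl5 promoter, chr11:83421316-83421595, minus strand: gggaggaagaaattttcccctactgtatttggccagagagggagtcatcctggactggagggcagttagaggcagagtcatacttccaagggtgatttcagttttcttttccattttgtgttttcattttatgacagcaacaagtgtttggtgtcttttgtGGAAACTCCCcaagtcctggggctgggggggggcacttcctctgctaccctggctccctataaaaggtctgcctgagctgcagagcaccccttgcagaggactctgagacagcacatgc
Ccl3 promoter, chr11:83540162-83540441, minus strand: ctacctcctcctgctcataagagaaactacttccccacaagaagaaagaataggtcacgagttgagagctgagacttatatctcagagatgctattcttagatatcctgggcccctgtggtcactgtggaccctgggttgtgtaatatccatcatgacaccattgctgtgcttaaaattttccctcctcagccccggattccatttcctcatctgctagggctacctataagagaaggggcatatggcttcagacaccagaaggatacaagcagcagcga
Ccl4 promoter, chr11:83553133-83553412, plus strand: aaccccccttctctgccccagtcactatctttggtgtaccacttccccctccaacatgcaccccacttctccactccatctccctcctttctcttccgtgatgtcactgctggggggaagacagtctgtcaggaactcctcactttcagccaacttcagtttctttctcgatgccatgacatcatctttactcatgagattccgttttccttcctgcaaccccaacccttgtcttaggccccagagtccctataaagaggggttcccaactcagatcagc
The Ccl9 promoter held an AP-1 match at -48 to -42 (TGAATCA) and an NF-kB match at -30 to -21, counted from the start site. Ccl5 held an NF-kB match at -89 to -80, and Ccl2 held an NF-kB match at -146 to -137 and a CEBP-ATF match at -98 to -91. Ccl7 held an AP-1 match at -63 to -57, and the windows of Ccl3, Ccl4 and Ccl6 held none of the letters searched. Of 21757 promoters of protein-coding genes in windows of the same length, 6.84% held AP-1 letters, 1.66% NF-kB, 10.2% CEBP, 3.63% CEBP-ATF and 3.64% interferon response element letters. A match describes the sequence and is not a binding site.

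Loops were concentrated on the Ccl9 and Ccl3 start sites and nearly absent from the first cluster. Ccl9 had 16, 23, 30 and 23 loops, most of them in p42 UT. Ccl3 had 12, 18, 24 and 17 loops, again most in p42 UT. These counts put Ccl9 above 97.5% to 99.5% of the genes with a start-site loop, and Ccl3 above 93.3% to 98.1%, where the median gene had 3 to 5 loops. Ccl4 had 4, 9, 19 and 12 loops, Ccl6 had 9, 11, 13 and 10, and Ccl5 had 1, 5, 10 and 5. Ccl2 had 1 loop in p30 UT and 1 in p42 LPS, and Ccl7 had none in any list. The order Ccl9, Ccl3, then the rest held in each list, whereas Ccl6 had more loops than Ccl4 in both p30 lists and fewer in both p42 lists.

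**Figure D1:**
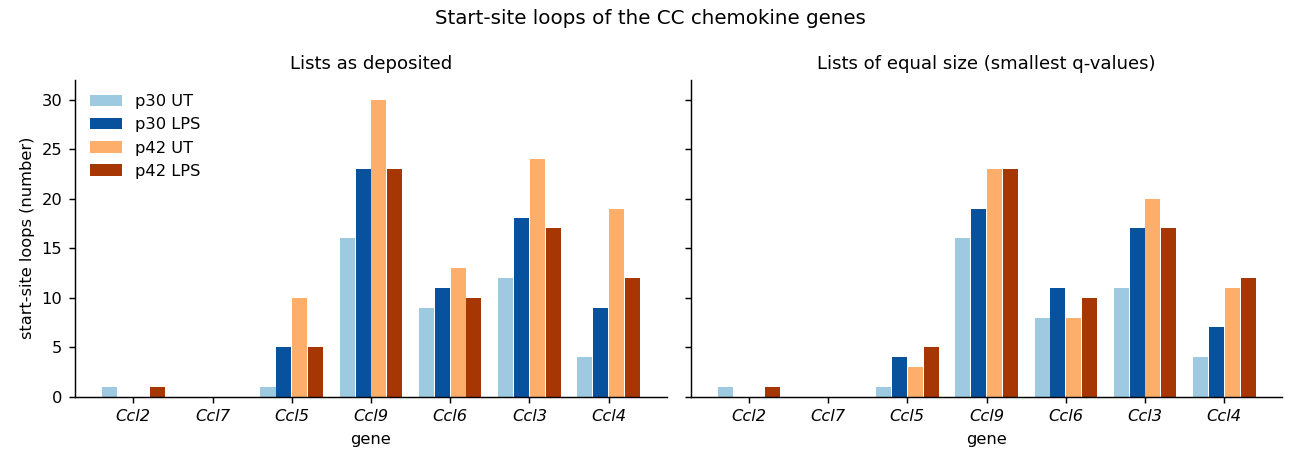
Number of start-site loops (vertical axis) for each of the 7 genes (horizontal axis) in the 4 pooled lists, as deposited on the left and with 78591 loops each on the right; bars are counts of 1 list and carry no error. Ccl9 reached 30 loops in p42 UT as deposited, and with equal lists its counts were 16, 19, 23 and 23.

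Counted once each, the loops of all 7 genes numbered 40, 63, 92 and 64. In untreated cells 5 of the 6 genes with any loop had more in p42 than in p30, but 79.0% of all 10526 genes with a loop had more there and 7.96% had fewer, so that this share is near the background set by the longer list. With lists of equal size the totals were 38, 55, 61 and 64, and 4 of the 6 genes had more loops in p42 UT than in p30 UT, beside 38.3% of 9755 genes with more and 34.6% with fewer. After LPS the same comparison gave 2 genes with more and 2 with fewer as deposited (20.5% and 51.0% of all genes), and 4 with more and 1 with fewer with equal lists (30.5% and 42.4%). In p30, LPS over UT gave 5 genes with more and 1 with fewer as deposited and with equal lists, beside 47.0% and 39.1% of all genes with more and 24.5% and 34.0% with fewer. In p42 it gave 1 gene with more and 5 with fewer as deposited (4.27% and 82.7%), and 4 with more and 1 with fewer with equal lists (28.3% and 41.3%). The difference between 92 loops in p42 UT and 64 in p42 LPS was thus not seen with equal lists, where 61 and 64 were counted.

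Per 1000000 modelled contacts, the contacts summed over these loops were 59.3 (95% exact Poisson interval 55.8 to 63.0), 114 (109 to 120), 174 (168 to 180) and 137 (131 to 143). The 4 intervals, which cover counting error only, did not overlap. Sums over listed loops move with the number of loops listed, so they stand beside the counts above. Of the 109 loops, 27 were in all 4 lists, 57 in both p42 lists, 31 in both p30 lists and 35 in a single list, 23 of these in p42 UT. After LPS, 71.4% of the p30 member loops were also in p42 and 70.3% the other way, beside 48.7% and 58.7% of all loops. In untreated cells the shares were 85.0% and 37.0%, beside 73.4% and 37.3%.

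The partner bins fell into few places. Distances ran from 10 to 225 kb, and no loop joined the 2 clusters. Bins that were partners of at least 3 of the genes formed 5 blocks, which lie at chr11:83330001-83335000 (overlapping 1700020L24Rik and Mmp28), 83440001-83465000 (from beyond Ccl5 to the end of Ccl9), 83525001-83535000 (an intron of the non-coding Gm53692), 83590001-83595000 (the start of Wfdc17) and 83620001-83645000. The last of these, called the distal block below, has no annotated gene in its first 3 bins and holds the start sites of Wfdc21 and Heatr6 in the other 2. It lies 70 to 90 kb beyond Ccl4, 80 to 100 kb upstream of Ccl3 and 155 to 175 kb from Ccl9, measured between bins.

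Short stretches of partner bins with high contacts over expected are given from the plus strand of GRCm39, with the motif letters in capitals. They come from the bins before Ccl3, reached by Ccl9, and from the distal block, reached by Ccl3 and Ccl4. Before means at lower coordinates here, which is beyond the 3′ end of Ccl3, a gene on the minus strand.
AP-1 letters in the bins before Ccl3, chr11:83530273-83530319, plus strand: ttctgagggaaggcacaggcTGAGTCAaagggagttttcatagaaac
AP-1 letters in the distal block, chr11:83626480-83626526, plus strand: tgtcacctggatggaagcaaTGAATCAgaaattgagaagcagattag
CEBP-ATF letters in the distal block, chr11:83627768-83627815, plus strand: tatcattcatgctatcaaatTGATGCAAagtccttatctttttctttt
Of 64985 peak bins of 5 kb, 77.4% held AP-1 letters, 50.6% CEBP-ATF, 85.8% CEBP and 18.1% NF-kB, so that single matches were common. The first bin of the distal block held 4 AP-1 matches, as many or more than which 7.48% of peak bins held. The last bins of the distal block, from chr11:83635001, held 0, and the bin at chr11:83455001-83460000 also held 4. The second bin of the distal block, the one with most contacts to Ccl3 and Ccl4, held 1 AP-1, 3 CEBP and 2 CEBP-ATF matches. Of peak bins, 77.4%, 34.1% and 16.8% held as many or more.

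Ccl9 met the region between Ccl6 and Ccl3 at 50 to 70 kb more often than the caller expected from distance and coverage. Its contacts with the bin at 65 kb (chr11:83530001-83535000) were 57, 55, 96 and 74, which were 12.9, 14.9, 17.4 and 16.7 times the expected number. These ratios were above 97.5% to 99.1% of the listed loops of that distance in each list. The bin at 55 kb had 33, 50, 78 and 74 contacts, or 8.0, 14.6, 15.1 and 17.1 times the expected number. Both bins had their lowest ratio in p30 UT, while the other 3 lists lay between 14.6 and 17.4. Over both bins of the intronic block, contacts over expected were 10.3 (95% Poisson interval 8.30 to 12.7) in p30 UT and 16.9 (14.6 to 19.6) in p42 UT, and both LPS lists lay between these values.

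A second maximum of Ccl9 lay in the distal block. Contacts with its bin at 165 kb numbered 20, 22, 39 and 30, at 11.3, 12.6, 19.7 and 15.6 times the expected number. The highest ratio of Ccl9 in any list was this one in p42 UT. Near the gene, the bin at 30 kb (chr11:83495001-83500000, in the non-coding genes E230016K23Rik and Gm38933) had 84 contacts in p42 UT, 49 in p42 LPS and 23 in p30 LPS. It was not on the p30 UT list, where at most 19 contacts fit a pair that was not called.

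**Figure D2:**
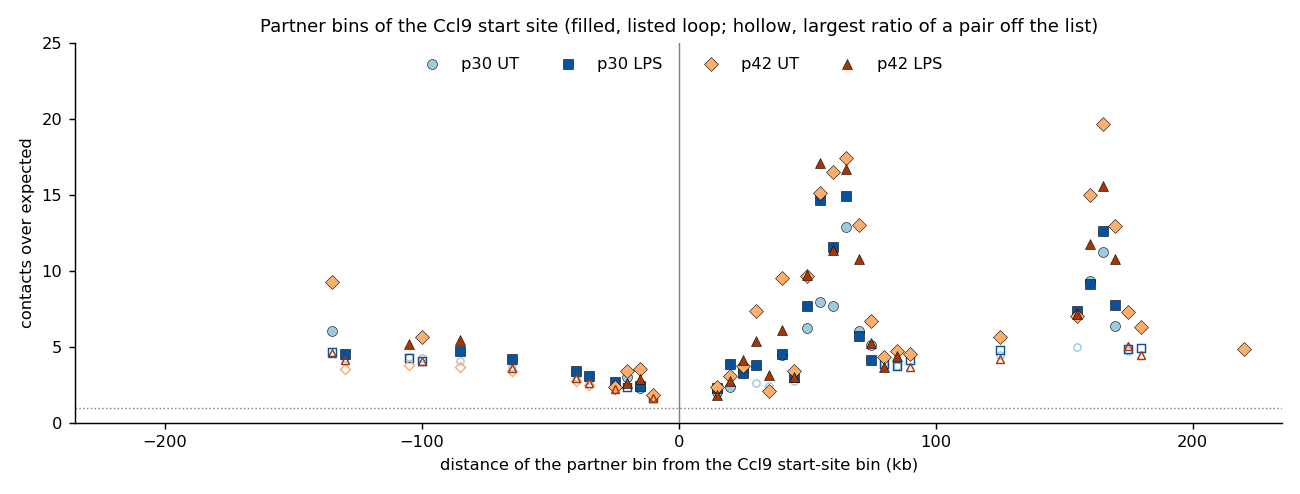
Contacts over the caller's expected number (vertical axis) for each partner bin of the Ccl9 start site by its distance in kb (horizontal axis; positive values lie towards Ccl3 and Ccl4); filled symbols are listed loops, hollow symbols the largest ratio a pair off that list could have, and the dotted line marks 1. Maxima lie at 55 to 65 kb and at 165 kb, with 17.4 and 19.7 in p42 UT.

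Ccl3 and Ccl4 shared their farthest strong partner, the distal block. The bin at chr11:83625001-83630000 had 22, 48, 46 and 76 contacts with Ccl3, or 8.6, 17.1, 14.4 and 22.8 times the expected number. The ratio in p42 LPS was above 99.7% of the listed loops of that distance in that list, and that in p30 UT above 88.2%. Ccl4 had 14, 25, 37 and 52 contacts with the same bin, or 5.5, 8.6, 10.8 and 14.1 times the expected number. For both genes the value was lowest in p30 UT and highest in p42 LPS, with LPS above UT in both isoforms and p42 above p30 in both treatments.

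Over the whole distal block Ccl3 had 3, 5, 5 and 5 loops with 54, 143, 163 and 189 contacts. Ccl4 had 2, 3, 4 and 5 loops with 25, 53, 105 and 153 contacts. For Ccl3, contacts over expected were 7.23 (95% Poisson interval 5.43 to 9.44), 11.6 (9.78 to 13.7), 11.1 (9.43 to 12.9) and 12.8 (11 to 14.7), and the interval of p30 UT lay below those of both LPS lists and touched that of p42 UT. For Ccl4 they were 4.94 (3.20 to 7.30), 6.55 (4.91 to 8.57), 8.23 (6.74 to 9.97) and 9.46 (8.02 to 11.1), with the interval of p30 UT below that of p42 LPS. Each of these values sums the loops of its own list, so the bins differ between lists. Whether the intervals overlap therefore depends on which loops were listed. At the bins in all 4 lists, 3 of Ccl3 and 2 of Ccl4, contacts over expected were also lowest in p30 UT for both genes. Towards Ccl9, Ccl3 had up to 5 loops in the block at 83440001-83465000 with 35 to 112 contacts. Ccl4 had loops there in p42 UT (5) and p30 LPS (1), and none in p30 UT or p42 LPS. The p42 UT pairs had 11 to 16 contacts, where pairs off the list could have at most 9 to 11 in p30 UT and 10 to 11 in p42 LPS. At these limits the ratios per modelled contact were 1.04 to 1.51 over p30 UT and 0.92 to 1.33 over p42 LPS. An excess over p42 LPS is therefore not shown for each pair.

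**Figure D3:**
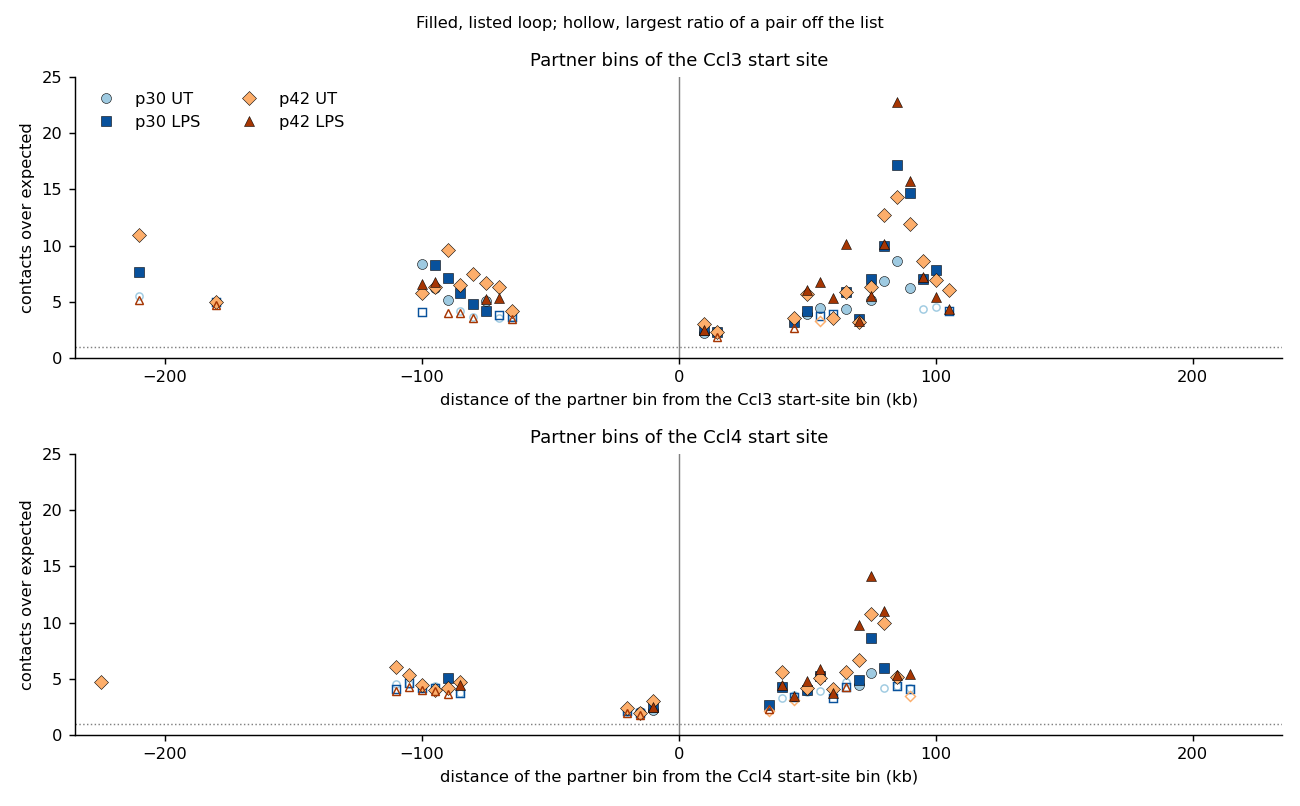
Contacts over expected (vertical axes) for partner bins of Ccl3 (upper panel) and Ccl4 (lower panel) by distance in kb from each start-site bin; filled symbols are listed loops and hollow symbols the largest ratio of a pair off that list. The Ccl3 maximum at 85 kb runs from 8.6 in p30 UT to 22.8 in p42 LPS, and the Ccl4 maximum at 75 kb from 5.5 to 14.1.

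Members also met each other. The Ccl3 and Ccl4 start-site bins, 10 kb apart, had 94, 117, 219 and 165 contacts, or 2.2, 2.5, 3.0 and 2.5 times the expected number. Ccl9 and Ccl6, 15 kb apart, had 43, 41, 74 and 46 contacts. Ccl9 and Ccl3, 75 kb apart, had 18, 13, 30 and 20 contacts, or 5.1, 4.2, 6.7 and 5.2 times the expected number. All 3 pairs were on each list with the most contacts in p42 UT, whereas Ccl9 and Ccl4 formed a loop in p42 alone, with 18 contacts untreated and 15 after LPS. In p30 at most 11 and 10 contacts fit a pair off the list.

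Ccl6 and Ccl5 had mostly short loops. The strongest of Ccl6 by contacts went to the next gene, to the bin at chr11:83470001-83475000 that holds the beginning of the Ccl9 gene outside its canonical transcript and the start of E230016K23Rik, with 87, 83, 157 and 147 contacts, higher in both p42 lists. Ccl5, whose loops were few in p30 UT, met the bins at 10, 15 and 20 kb towards Ccl9 in 3 lists. The bin at 20 kb was off the p30 UT list, where it could have had at most 24 contacts, and had 48 after LPS. In p42 it had 36 contacts untreated and 33 after LPS. The single Ccl5 loop of p30 UT went 215 kb to the Wfdc21 bin, with 9 contacts. Ccl2 met a bin at 30 kb (chr11:81895001-81900000, an exon of Gm31522) with 11 contacts in p30 UT and 13 in p42 LPS, 4.49 and 4.93 times the expected number. Contacts of Ccl2 in the other 2 lists, and of Ccl7 in any, were below the caller's threshold or not given, and their number is unknown.

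The first question was whether the contacts of these genes differed between p42 and p30. In untreated cells, 34 member loops were in both lists, with a median log2 ratio of contacts per modelled contact of 0.88 for p42 over p30, beside 0.20 over all 59069 loops tested. Of these, 33 were higher in p42, beside 68.7% of all loops, and 8 were called higher and 0 lower at an adjusted p under 0.05 (exact binomial test, two-sided, Benjamini-Hochberg over all loops), where 4.76% of all loops were called higher and 0.066% lower. Those called were 5 loops of Ccl9, 2 of Ccl6 and the loop between Ccl3 and Ccl4. The loop between Ccl3 and Ccl4 had the smallest adjusted p (219 contacts against 94, ratio 2.20, adjusted p 1.81e-08). The Ccl9 loops called went to bins at 15 kb behind it and at 40, 55, 60 and 70 kb towards Ccl3, with ratios from 1.93 to 2.84 and adjusted p from 0.0002 to 0.0059. Those of Ccl6 went to the bins at 10 kb on both sides, with 157 contacts against 87 (adjusted p 0.0032) and 123 against 58 (adjusted p 0.0007). No loop of Ccl3 with the distal block was called in this comparison. The 34 loops share start-site bins, with 16 at Ccl9 and 11 at Ccl3, and some partner bins adjoin. They are therefore not independent units, nor are the member loops of the comparisons below.

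Coverage moved with these differences. When the expected counts, which carry the coverage of both bins, set the null share, 1 of the 8 calls was left, beside 0.367% of all loops called higher. It was Ccl9 with the bin at 60 kb (89 contacts against 33, ratio 2.15, adjusted p 0.0399 by the exact test). At an unadjusted p under 0.05, 9 of 34 loops were then higher, and the share of all loops at that threshold was not counted. When all shared loops set the null share, 3 calls were left, beside 0.995% of all loops called higher. How much of the contact differences belongs to coverage was not tested. Pairs on the p42 UT list alone were 58, of which 49 have a bound in p30 UT. With such pairs set at the largest count that leaves them off the list, Ccl9 with the bin at 30 kb was called too (84 contacts against at most 19, at least 4.18-fold, adjusted p 3.14e-07 by the exact test), as was Ccl6 with that bin (69 against at most 30, at least 2.18-fold, adjusted p 0.0220). Both pairs entered only through the p42 UT list, where they were high. Their adjusted p-values therefore cannot be read as tests of a difference. Of the 49 pairs, 19 were at least 1.5-fold above the bound, beside 20.5% of all such pairs. Of 5 member pairs with a bound on the p30 UT list alone, 0 were, beside 17.9%.

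The same comparison was made after LPS. There were 45 member loops in both lists, with a median log2 ratio of 0.36 beside -0.13 over all 46110 loops. Of these 36 were higher in p42, beside 34.7% of all loops, 1 was called higher and 0 lower, where 0.191% of all loops were called higher and 1.24% lower. The call was Ccl6 with the bin that holds the beginning of Ccl9 (147 contacts against 83, ratio 1.62, adjusted p 0.0359 by the exact test). At an unadjusted p under 0.05, 9 loops were higher, and the share of all loops at that threshold was not counted. With expected counts as the null share there were 0 calls, beside 0.00217% of all loops called higher and 0.039% lower. At an unadjusted p under 0.05, 2 loops were then higher, again with no share of all loops counted. With all shared loops as the null share, the member medians were 0.60 untreated and 0.54 after LPS, where 1 loop was called beside 0.321% of all loops. Of the pairs on 1 LPS list with a bound in the other, 6 of 17 in p42 and 2 of 18 in p30 were at least 1.5-fold above it, beside 11.8% and 22% of all such pairs.

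The second question was what LPS did within each isoform. In p30, 31 member loops were in both lists, with a median log2 ratio for LPS over UT of 0.41 beside 0.22 over all 47004 loops. Of these 28 were higher after LPS, beside 73.4% of all loops, and 2 were called higher by the exact binomial test, where 1.98% of all loops were called higher and 0.0128% lower, and 6 had an unadjusted p under 0.05. Both joined Ccl3 to the distal block. Its bin at 85 kb had 48 contacts against 22 (ratio 2.70, 95% interval 1.60 to 4.70, adjusted p 0.0098), and its bin at 90 kb had 36 against 15 (ratio 2.97, adjusted p 0.0240). In p42, 57 loops were in both lists, with a median of 0.04 beside -0.13 over all 59847 loops. Again the bin at 85 kb from Ccl3 was called higher after LPS, with 76 contacts against 46 (ratio 1.98, 95% interval 1.36 to 2.93, adjusted p 0.0274), where 0.0334% of all loops were called higher and 1.33% lower. No other member loop was called in p42, and 6 were higher and 2 lower at an unadjusted p under 0.05. The share of all loops at an unadjusted p under 0.05 was not counted in either isoform. With expected counts as the null share, 0 were called in p30 and 0 in p42, with 3 and 1 higher at an unadjusted p under 0.05. Of all loops 0.0511% were then called higher and 0.00213% lower in p30, and 0.0% and 0.0602% in p42. With all shared loops as the null share, the member medians were 0.14 in p30 and 0.25 in p42, the opposite order, with 0 and 1 called, beside 0.243% and 0.0718% of all loops. Each list enters 2 of the 4 comparisons, so their values are not independent.

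Pairs on 1 list of an isoform were read against their bound as well. In p30, 15 of 28 member pairs on the LPS list alone were at least 1.5-fold above the bound in UT, beside 30.3% of all such pairs, and 1 of 8 on the UT list alone, beside 5.67%. Among the pairs on the p30 LPS list alone was Ccl5 with the bin at 20 kb (48 contacts against at most 24, at least 2.48-fold). It was called when pairs off 1 list entered the exact test at their largest count (adjusted p 0.0393). That pair entered only through the LPS list, where it was high, so this adjusted p cannot be read as a test of a difference. In p42, 4 of 6 on the LPS list alone were that far above the bound, beside 28.8%, and 5 of 33 on the UT list alone, beside 12.1%.

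The 27 loops in all 4 lists allow the same pairs to be set side by side. For all of them the p42 over p30 ratio was 1.90 (95% interval 1.74 to 2.08) untreated and 1.37 (1.26 to 1.49) after LPS, and the LPS over UT ratio 1.41 (1.28 to 1.56) in p30 and 1.01 (0.94 to 1.09) in p42. Contacts of all 31032 loops in all 4 lists gave 1.28 and 0.87 for p42 over p30, and 1.22 and 0.83 for LPS over UT, in the same order. Scaled to these, the member ratios were 1.48 and 1.58 for p42 over p30 and 1.15 and 1.23 for LPS over UT, so that the order of untreated and LPS, and of p30 and p42, turned. For the 14 of Ccl9 the LPS over UT ratio was 1.29 (1.12 to 1.48) in p30 and 0.86 (0.77 to 0.95) in p42. The 9 of Ccl3 gave 1.74 in p30 and 1.16 in p42. Scaled to all such loops, those of Ccl9 gave 1.06 and 1.04, and those of Ccl3 1.42 and 1.40. Dividing by the expected counts brought the ratios for all 27 loops to 1.37, 1.12, 1.21 and 0.98. Within the distal block, the 3 loops of Ccl3 gave 2.52 (1.81 to 3.56) in p30 and 1.55 (1.21 to 1.98) in p42 for LPS over UT, and the 2 of Ccl4 gave 1.88 (1.11 to 3.26) and 1.75 (1.24 to 2.48). Those of Ccl9 with the same block gave 1.34 (0.89 to 2.03) and 0.93 (0.68 to 1.28). These sums rest on different bins of the block. At the bin that all 3 genes met in each list (chr11:83625001-83630000), Ccl3 gave 2.70 in p30 and 1.98 in p42, Ccl4 gave 2.21 (1.11 to 4.61) and 1.69 (1.09 to 2.64), and Ccl9 gave 1.24 (0.59 to 2.58) and 0.93 (0.52 to 1.64). The intervals of the 3 genes overlapped in both isoforms, and their difference was not tested.

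**Figure D4:**
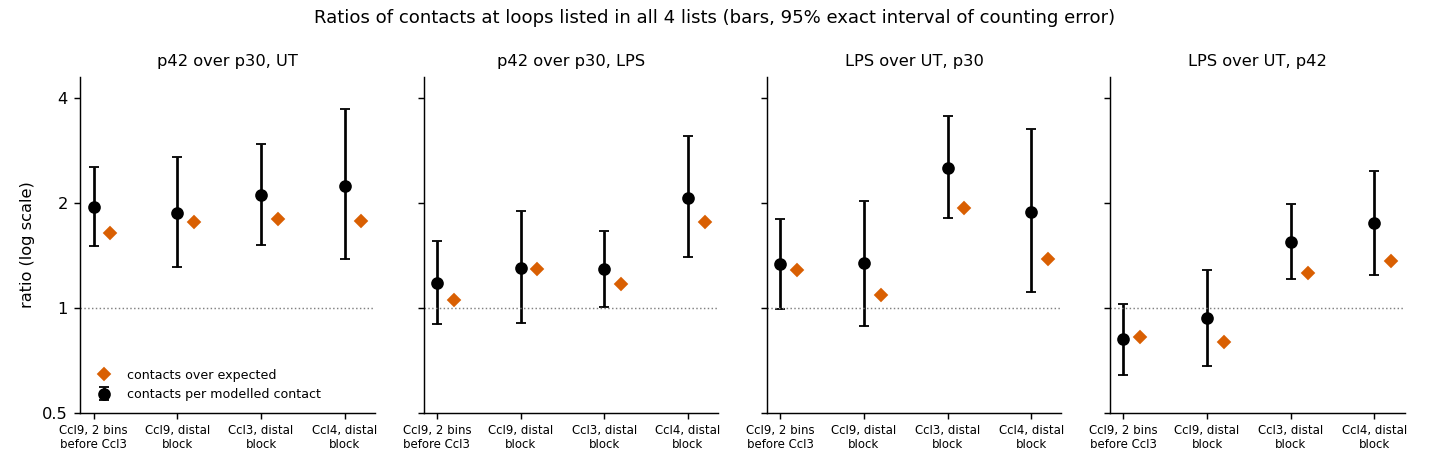
Ratios of contacts (vertical axis, log scale) in the 4 comparisons (panels) for loops listed in all 4 lists of Ccl9 with the bins before Ccl3 (at lower coordinates, beyond its 3′ end) and of Ccl9, Ccl3 and Ccl4 with the distal block; black points are contacts per modelled contact with 95% exact intervals of counting error, orange diamonds are contacts over expected. For LPS over UT, Ccl3 and Ccl4 with the distal block lie above 1 in both isoforms (2.52 and 1.88 in p30, 1.55 and 1.75 in p42), also over expected.

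Coverage at the start sites, the reads per bin that rise with H3K27ac enrichment, was highest at Ccl9 in 3 lists. Its bin had 8323, 7964, 14325 and 7553 reads, which was 3.46, 3.56, 4.92 and 3.90 times the mean of peak bins in each list. The Ccl3 bin had 6312, 7733, 11644 and 7831 reads and the Ccl4 bin 4527, 5855, 9925 and 7605. Both were lowest in p30 UT and highest in p42 UT in reads, and relative to the mean of peak bins both were highest in p42 LPS. Ccl6 had 3614, 3643, 6573 and 4697 reads, and Ccl5 had 3174, 3620, 3327 and 3219. The Ccl2 bin had 986 reads in p30 UT and 933 in p42 LPS, well under the mean of peak bins, and the Ccl7 bin had no value because coverage is listed for bins of a loop.

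Relative to the mean of peak bins, p42 over p30 in untreated cells gave log2 ratios of 0.86 at Ccl4, 0.61 at Ccl3, 0.59 at Ccl6, 0.51 at Ccl9 and -0.21 at Ccl5. The first 3 of these 5 bins were past 1.5-fold, beside 4.78% of all peak bins higher and 3.43% lower. After LPS 1 of 5 was past it, Ccl4 at 0.59, beside 3.87% higher and 2.88% lower. For LPS over UT, 0 of 5 were past it in p30 (2.28% of all peak bins higher, 0.865% lower) and 0 of 5 in p42 (1.58% and 1.16%), and the values ran from 0.04 to 0.47 in p30 and from -0.34 at Ccl9 to 0.54 at Ccl5 in p42. Scaling to modelled contacts moved all bins by 0.20 and -0.33 in p42 over p30, untreated and after LPS, and by 0.21 and -0.32 in LPS over UT, p30 and p42. Signs turned negative for Ccl5, Ccl9 and Ccl3 in p42 over p30 after LPS, and for Ccl6, Ccl3 and Ccl4 in LPS over UT in p42. Scaling to the median of peak bins moved all bins by at most 0.02, but Ccl6 untreated (0.59 to 0.57) and Ccl4 after LPS (0.59 to 0.58) then fell short of 1.5-fold, which left 2 and 0 of 5 start sites. Of all peak bins, 4.48% and 3.81% were then past it as higher. Scaled to modelled contacts, 4 and 0 of 5 were past it for p42 over p30, untreated and after LPS, beside 10.7% and 0.911% of all peak bins higher. That scaling put 2 of 5 past it for LPS over UT in p30 and 0 higher in p42, where Ccl9 was past it as lower (-0.66). Of all peak bins 6.93% were then higher in p30, and 0.298% higher and 13.2% lower in p42.

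In p30, the partner bin whose coverage differed most between LPS and UT lay in the distal block. The bin at chr11:83625001-83630000, which of this block met Ccl3 and Ccl4 most often, had 3246, 7356, 5633 and 6691 reads. Its log2 ratio for LPS over UT was 1.28 in p30 and 0.83 in p42, at percentiles 100 and 99.6 of all peak bins, and scaled to modelled contacts it was 1.49 and 0.51. In p42 the bin at chr11:83605001-83610000, 65 kb from Ccl3, gave a like value of 0.84. The bins on either side gave 0.82 and 0.67 in p30, and 0.76 and 0.70 in p42. For p42 over p30, the 3 bins at chr11:83485001-83500000 between Ccl6 and the bins before Ccl3 gave the largest values of the partner bins, 0.87 to 1.06 untreated and 0.69 to 0.86 after LPS. Among partner bins with a peak, 7 of 39 were past 1.5-fold in p42 over p30 untreated and 7 of 41 after LPS, and 4 of 39 and 7 of 41 for LPS over UT in p30 and p42, all of them higher, beside the 4.78%, 3.87%, 2.28% and 1.58% of all peak bins given above. Scaled to modelled contacts, 14 of 39 and 15 of 39 were higher for p42 over p30 untreated and LPS over UT in p30, beside 10.7% and 6.93% of all peak bins. With that scaling 0 of 41 were past 1.5-fold for p42 over p30 after LPS (highest 0.53, beside 0.911% of all peak bins higher and 16.8% lower). It gave, for LPS over UT in p42, 0 higher (highest 0.52) and 2 lower, at chr11:83460001-83465000 (-0.60) and chr11:83535001-83540000 (-0.73), beside 0.298% and 13.2%.

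**Figure D5:**
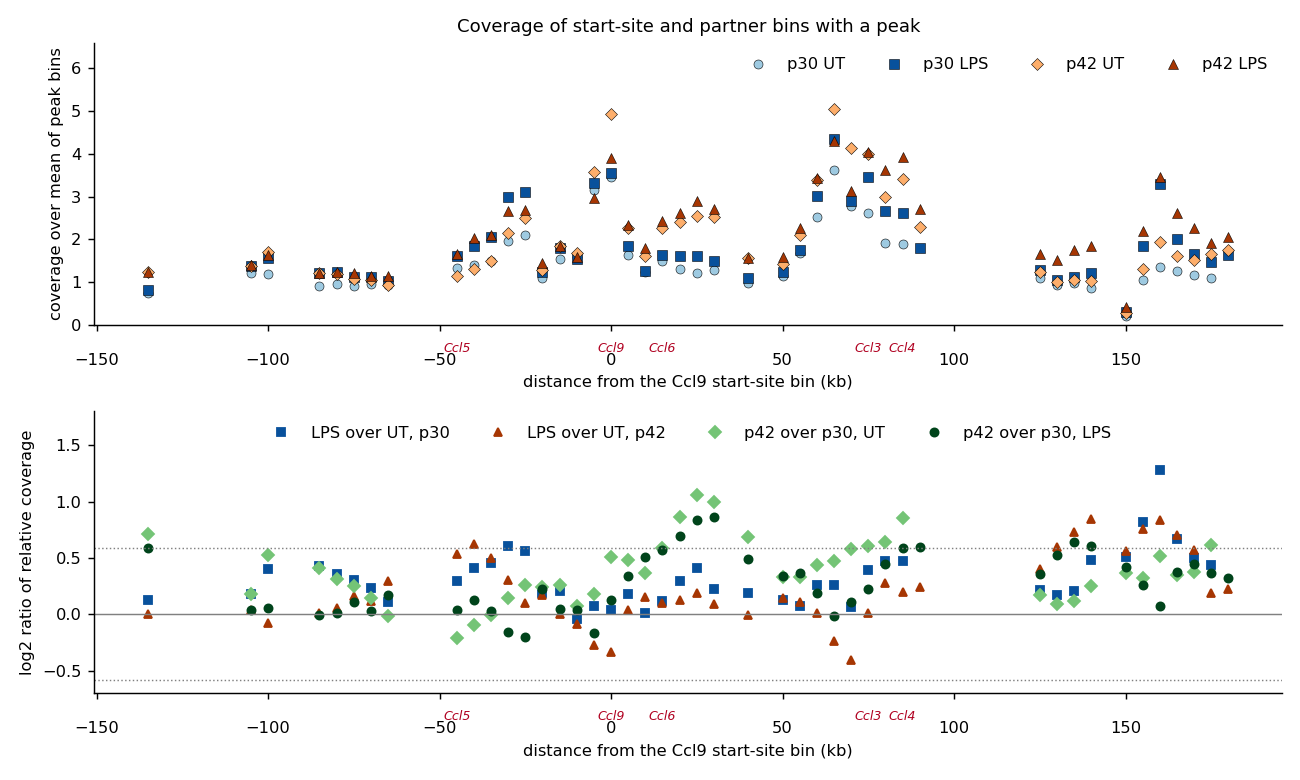
Upper panel, coverage over the mean of peak bins (vertical axis) for start-site and partner bins with a peak, by distance in kb from the Ccl9 start-site bin, in the 4 lists; lower panel, log2 ratios of these values in the 4 comparisons, with dotted lines at 1.5-fold. For LPS over UT, the distal bin at 160 kb is highest in p30 (1.28), while in p42 it has 0.83 and the bin at chr11:83605001-83610000 has 0.84. For p42 over p30, the bins at 20 to 30 kb stand out (up to 1.06).

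Loops within 100 kb that touched no member start site numbered 140, 215, 337 and 215, nearly all in the second cluster. The first cluster had 1 in each p42 list and none in p30. With lists of equal size there were 137, 194, 182 and 215. Their median distance was 65 to 75 kb in the second cluster, and 92.6% to 95.7% joined bins that both had a peak.

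Neighbouring genes met the members in at least 2 lists at 5 start-site bins. Wfdc17 and Wfdc21, which encode WAP domain proteins, were partners in all 4 lists. Wfdc17 was met by Ccl3 in each, also by Ccl4 in 3 lists and by Ccl9 in p42 UT, and Wfdc21 by Ccl9 in each and by Ccl3 in all but p30 UT. Wfdc18 was a partner in p30 UT and p42 LPS, Heatr6 in 3 lists, and Taf15, which encodes an RNA-binding protein, was met by Ccl3 in p42 UT and by Ccl9 in p42 LPS.

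The other genes of the CC chemokine system were counted in the same way. Of 14 other CC chemokine genes, 4 had a start-site loop in any list: Ccl17 with 5, 7, 7 and 7, Ccl25 with 0, 1, 6 and 0, Ccl1 with 1 in p30 LPS and Ccl22 with 1 in p42 UT. The other 10 ligand genes had none. Of 15 receptor genes 11 had one in any list, and 10 or 11 in each, beside 10526 of 21757 protein-coding genes with one in any list. Ccr2, the receptor of Ccl2 and Ccl7, had 12, 14, 30 and 18, and Ccr1 had 10, 10, 19 and 12. With lists of equal size Ccr2 had 11, 13, 19 and 18 and Ccr1 had 9, 10, 14 and 12. Ccl17 then had 5, 4, 5 and 7, Ccl25 had 0, 1, 2 and 0, and Ccl22 had none. The other counts here are as deposited. Ccr6 had 4, 1, 7 and 3, Ccr9 had 4, 4, 2 and 3, Ccr7 had 1 in p30 UT, and Ccr8, Ackr1, Ackr2 and Ackr4 had none.

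The mean pattern of start-site coverage over the 5 members with a value in all lists was compared with 6339 protein-coding genes by Euclidean distance of centred log2 values over the 4 lists. The pattern was -0.33, -0.06, 0.14 and 0.25. The nearest genes were Lpin2 on chromosome 17 (distance 0.034), Tiparp on chromosome 3, Asph on chromosome 4, and Eef1akmt4 with Eef1ece2 on chromosome 16, which share a bin (0.073). The likeness rests on 4 values and describes these lists. Among the members, Ccl3 was closest to their mean (0.12), followed by Ccl6 (0.22), Ccl9 (0.36), Ccl4 (0.37) and Ccl5 (0.57). Each member thus lay farther from the mean than the nearest genes named, which are near the mean and not near each member.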

How the data were processed

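H3K27ac HiChIP libraries (8, of 4 groups with 2 replicates each) were made by the authors with an MNase kit. Reads were aligned by the authors to mm39 with BWA-MEM 0.7.17, ligation products were recorded and duplicates removed with pairtools, and loops were called with FitHiChIP in 5 kb bins at a q-value under 0.01. How the replicates were pooled is not given in the sources used here. In the deposited files, a contact count is the tally of ligation products joining 2 bins, with no normalization. Expected signal was given by the authors as the contacts their background model predicts from distance and bias, and their contact probability is that prediction as a fraction of all modelled contacts. Coverage was deposited as reads in each bin, and bias as the ratio of this coverage to the mean over bins of the same kind (with or without a peak). Each deposited q-value adjusts a binomial p-value from FitHiChIP. Because the expected number follows coverage, contacts over expected understate a contact difference that comes with H3K27ac, and pairs under the threshold are not listed.

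The members and gene lists were chosen with earlier results of these data known. Start sites were those of the canonical transcripts of the 21757 protein-coding genes of GENCODE M39 (GRCm39), and sequences were read from the GRCm39 genome. Named genes were the 7 members, protein-coding neighbours with a start site in a partner bin in at least 2 lists, fixed lists of CC chemokine, receptor and marker genes, and the 5 genes of most similar coverage pattern. Some genes of these lists are not reported here. Contacts of pairs in both lists were compared by an exact binomial test (SciPy 1.17.1) with the modelled contacts as the null share. Coverage was divided by the mean of peak bins, and 1.5-fold was called. The caller's probability was recomputed from distance and bias (largest p-value error 0.987%) to bound the contacts of unlisted pairs, an alternative added after seeing the data. Intervals cover counting error only, with no allowance for replicates or PCR. The tests were tried on simulated data first.

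Alternatives were lists of equal size, a q-value under 0.001, at least 5 contacts, all transcript starts, start-site bins with their neighbours, merged adjacent pairs, other null shares, loops in all 4 lists, at least 10 contacts over both lists, other scalings and other windows. Python 3.11.15, numpy 2.4.6, pandas 2.3.3 and matplotlib 3.10.9 were used.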

Additional observations from a re-analysis of the deposited data

Results flagged for a closer look

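The values in this part are differences between 2 log2 ratios that had opposite signs. With 1 pooled list per group none of these differences was tested, and no explanation was tested. For LPS over UT, p30 was above 0 and p42 below it for the total of start-site loops (difference 1.1789), for their contacts per modelled contact (1.2952) and for other loops within 100 kb (1.2673). By gene, the loop counts differed in this way by 3.3219 for Ccl5, which had 1 loop in p30 UT, 1.8329 for Ccl4, 1.0825 for Ccl3, 0.9069 for Ccl9 and 0.668 for Ccl6. With lists of equal size the p42 totals were 61 untreated and 64 after LPS, and the opposite sign of the total was not seen. Nor was it seen for Ccl5 (3 and 5 loops in p42), Ccl4 (11 and 12), Ccl6 (8 and 10) or Ccl9 (23 and 23), whereas Ccl3 kept it (20 and 17 in p42, 11 and 17 in p30). The p42 ratio turned to 1.18 for other loops with lists of equal size, and to 1.46 for contacts when scaled to listed loops. For Ccl9, contacts in its 14 loops of all 4 lists differed by 0.5938 (0.37 in p30 and -0.23 in p42), and the coverage of its start-site bin by 0.377 (0.04 and -0.34). All loops in all 4 lists gave 0.29 in p30 and -0.28 in p42, and scaled to them the Ccl9 contacts were 0.08 and 0.05, of the same sign.

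For p42 over p30, untreated and LPS-treated cells had opposite signs in the loop counts of Ccl3 (difference 1.0825, from 1.00 and -0.08) and Ccl6 (0.668, from 0.53 and -0.14), and in the coverage of the Ccl5 start-site bin (-0.2455, from -0.21 and 0.04). With lists of equal size neither gene had opposite signs: p30 and p42 had 11 and 20 loops of Ccl3 untreated and 17 and 17 after LPS, and 8 and 8 of Ccl6 untreated and 11 and 10 after LPS. Scaled to modelled contacts, the Ccl5 coverage values were -0.01 and -0.30, of the same sign.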

How the results depend on the processing

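No paired analysis was possible because both replicates of each group are pooled in 1 list, and its columns carry no replicate numbers; no replicate could be left out for the same reason. Of 100 alternative values, 68 kept their direction and size or call, 17 moved, 7 reversed and 8 lost calls. The causes were not tested. The ratio of start-site loops for p42 over p30 was 2.30 untreated and 1.26 with adjacent pairs merged; after LPS it was 1.02, and it reversed to 0.976 with all transcript starts and to 0.783 with merged pairs. For LPS over UT in p42 it was 0.696, and 1.05 with equal lists. Contacts per modelled contact for p42 over p30 gave 2.94 untreated (2.48 with equal lists, 3.70 at a q-value under 0.001, 1.48 scaled to all listed loops) and 1.20 after LPS (1.29, 1.30 and 1.60 in the same order). For LPS over UT they gave 1.92 in p30 (2.25 at the stricter q-value, 1.35 scaled to listed loops) and 0.784 in p42 (0.952 with equal lists, reversed to 1.46 scaled to listed loops). Contacts in the 27 loops of all 4 lists, scaled to all such loops (chosen after seeing the data), gave 1.48 in place of 1.90 and 1.58 in place of 1.37 for p42 over p30, untreated and after LPS, and 1.15 in place of 1.41 and 1.23 in place of 1.01 for LPS over UT. Other loops within 100 kb gave 2.41 for p42 over p30 untreated (1.33 with equal lists) and 0.638 for LPS over UT in p42 (reversed to 1.18). Of the loops called higher by the exact binomial test, expected counts as the null share left 1 of 8 and 0 of 1 for p42 over p30, untreated and after LPS, and 0 of 2 and 0 of 1 for LPS over UT in p30 and p42. The null share from all shared loops left 3 of 8 untreated and 0 of 2 in p30, with 2 at an unadjusted p under 0.05. With pairs off 1 list at their largest count, chosen after seeing the data, 10 were called for p42 over p30 untreated and 0 after LPS, beside 2.07% and 0.0607% of all pairs called higher. For LPS over UT 3 were called in p30 and 0 in p42, beside 0.79% and 0.0135%. Where 0 were called, 10 and 7 pairs had an unadjusted p under 0.05 by the exact test, with no share of all pairs counted. Pairs on 1 list entered only through the list where they were high. Scaled to modelled contacts, the median coverage ratio of the start sites went from 0.59 to 0.78 and from 0.23 to -0.11 for p42 over p30, untreated and after LPS, and from 0.29 to 0.50 and from 0.10 to -0.22 for LPS over UT in p30 and p42. At this depth a pair off a list can still hold contacts, up to 24 for Ccl5 with the bin at 20 kb in p30 UT. The limit was 73 for Ccl9 with a bin at 10 kb in p30 UT, and 73 for Ccl6 with a bin at 10 kb in p42 LPS.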
